A study of Mus musculus with 4 samples.

Results

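DEAD and DEAH box proteins are RNA helicases, enzymes that use ATP to open RNA duplexes or to pull proteins off RNA. Different members act at each step in the life of an mRNA, from splicing in the nucleus to translation and decay in the cytoplasm, and others assemble ribosomes or recognise foreign RNA. Male germ cells depend on such enzymes, because spermatids store mRNAs for translation after transcription has stopped. The genes described here are the protein-coding genes of the mouse annotation GENCODE M21 whose symbol starts with Ddx or Dhx and a number, with Ddx4 left out. They are 52 of 21951 protein-coding genes, and the question addressed is whether and where their transcripts were bound by IGF2BP3, an RNA-binding protein that attaches to mRNAs.

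Binding was measured by eCLIP-seq in testes of 8-week-old wild type C57BL/6 mice without treatment, which contain germ cells and somatic cells together, with 2 testes in a suspension. RNA was crosslinked to protein with UV light, fragments held by IGF2BP3 were collected with an antibody (IP), and size-matched input RNA of the same lysate (SMInput) was sequenced as background. There were 2 replicates, each with 1 IP and 1 SMInput library, 4 samples in all. The study calls the eCLIP-seq replicates biological, and the labels do not name the animals. Whole testes were lysed, so the cell type in which a transcript was bound cannot be read from these data, and no sample without IGF2BP3 was analysed. Marker transcripts of testis cell types were looked up. All 6 spermatid, 4 spermatocyte and 3 spermatogonia genes had clusters in both replicates, as did all 5 Leydig cell genes. Of 4 Sertoli cell genes, 4 had them in replicate 1 and 3 in replicate 2. Of 21951 protein-coding genes, 14051 had a cluster in replicate 1 and 12841 in replicate 2, so these counts cannot verify the labelled tissue.

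A cluster is a stretch covered by IP reads, and its log2 fold change is the IP share of reads over the SMInput share in that stretch. The listed values returned whole read numbers for library totals of 5133438 IP and 8706391 SMInput reads in replicate 1, and of 4637612 and 16696122 in replicate 2. A cluster was counted as a significant peak when its log2 fold change and its −log10(P value) both reached 2. The P value compares IP with SMInput reads of 1 replicate and says nothing about spread between animals. A cluster with 1 SMInput read needed 7 IP reads to pass in replicate 1 and 4 in replicate 2, and with 10 SMInput reads it needed 24 and 12.

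IGF2BP3 peaks on helicase transcripts were few and mostly near the threshold. Of 1280 clusters in the 52 genes in replicate 1, 48 were significant (3.75%), beside 4.92% of all 337234 clusters. In replicate 2 the count was 78 of 947 (8.24%), beside 13.2% of all 216354. Significant helicase peaks had median log2 fold changes of 2.56 and 2.66, against 2.84 and 3.07 for those in all protein-coding genes. When a log2 fold change of 1 was enough, the order turned in replicate 1, where 8.36% of helicase clusters passed beside 7.24% of all clusters, and stayed in replicate 2 with 15.6% beside 18.4%. The shares are a description, since clusters of 1 transcript are not independent.

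Most clusters of the family lay slightly above the input without passing. The median log2 fold change over all helicase clusters was 1.18 in replicate 1 and 1.14 in replicate 2, while that of clusters in all protein-coding genes was 1.46 and 1.53. A total of 329 helicase clusters reached a log2 fold change of 2 in replicate 1, of which 281 missed the P value threshold with a median of 4 IP reads. In replicate 2, 115 of 193 such clusters missed it, with a median of 3 IP reads. For the clusters that missed it the depth does not allow a call either way. The share that passed was slightly above that in all protein-coding genes, 14.6% beside 12.8% in replicate 1 and 40.4% beside 37.5% in replicate 2.

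Among 3′UTRs, coding sequence and introns, the shares of significant clusters followed the same order as in other genes. In replicate 1, 18 of 159 helicase clusters in 3′UTRs were significant (11.3%, beside 19.4% of 3′UTR clusters of all protein-coding genes). In coding sequence it was 18 of 594 (3.03%, beside 5.28%), and in introns 9 of 499 (1.80%, beside 1.94%). In replicate 2 the counts were 28 of 148 in 3′UTRs (18.9%, beside 34.5%), 24 of 498 in coding sequence (4.82%, beside 7.97%) and 23 of 276 in introns (8.33%, beside 10.7%). Clusters in 3′UTRs thus passed at the highest share of these 3 regions in both replicates, and the share was below that of all protein-coding genes in each of the 3. In 5′UTRs the share was higher but rested on few peaks, with 3 of 28 significant in replicate 1 (10.7%, beside 5.08%) and 3 of 25 in replicate 2 (12.0%, beside 8.59%). A Ddx20 site was among the 3 in both replicates. Helicase clusters in 5′UTRs were less often above 0, 75.0% beside 81.8% in replicate 1 and 76.0% beside 88.6% in replicate 2. Helicase genes had comparatively many clusters in coding sequence, 46.4% and 52.6% of their clusters against 27.4% and 34.8% over all protein-coding genes.

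At the level of genes, every one of the 52 had at least 1 cluster in replicate 1, and all but Ddx59 had one in replicate 2. At least 1 significant peak was present in 22 of 52 genes in replicate 1 (42.3%, beside 40.8% of all protein-coding genes with a cluster) and in 29 of 51 genes in replicate 2 (56.9%, beside 62.8%). Both replicates had a significant peak, not necessarily at the same place, in 17 of 51 genes (33.3%, beside 39.1%), and 18 genes had none in either. The helicase genes carried more clusters than usual, with a median of 21 per gene in replicate 1 and 15 in replicate 2 against 12 and 9, so more clusters per gene were available to pass.

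Of the 48 peaks significant in replicate 1, 25 met a cluster of replicate 2, and the median log2 fold change there was 1.77, with the highest cluster taken where a peak met several. All 25 of those clusters were above 0, as were 89.8% of all helicase clusters in replicate 2, but 9 were significant. Of the 78 peaks of replicate 2, 34 met a cluster of replicate 1, with a median of 1.96. Of these 33 were above 0, beside 85.9% of all helicase clusters in replicate 1, and 10 were significant. The same counts for peaks of all protein-coding genes are not given here, so they do not show whether helicase peaks differ from others. Over all 516 pairs of overlapping helicase clusters, from 42 genes, the log2 fold changes of the 2 replicates correlated with Pearson's r = 0.574 and Spearman's rho = 0.560. These pairs share libraries and neighbouring clusters share reads, so the values are descriptive.

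**Figure D1:**
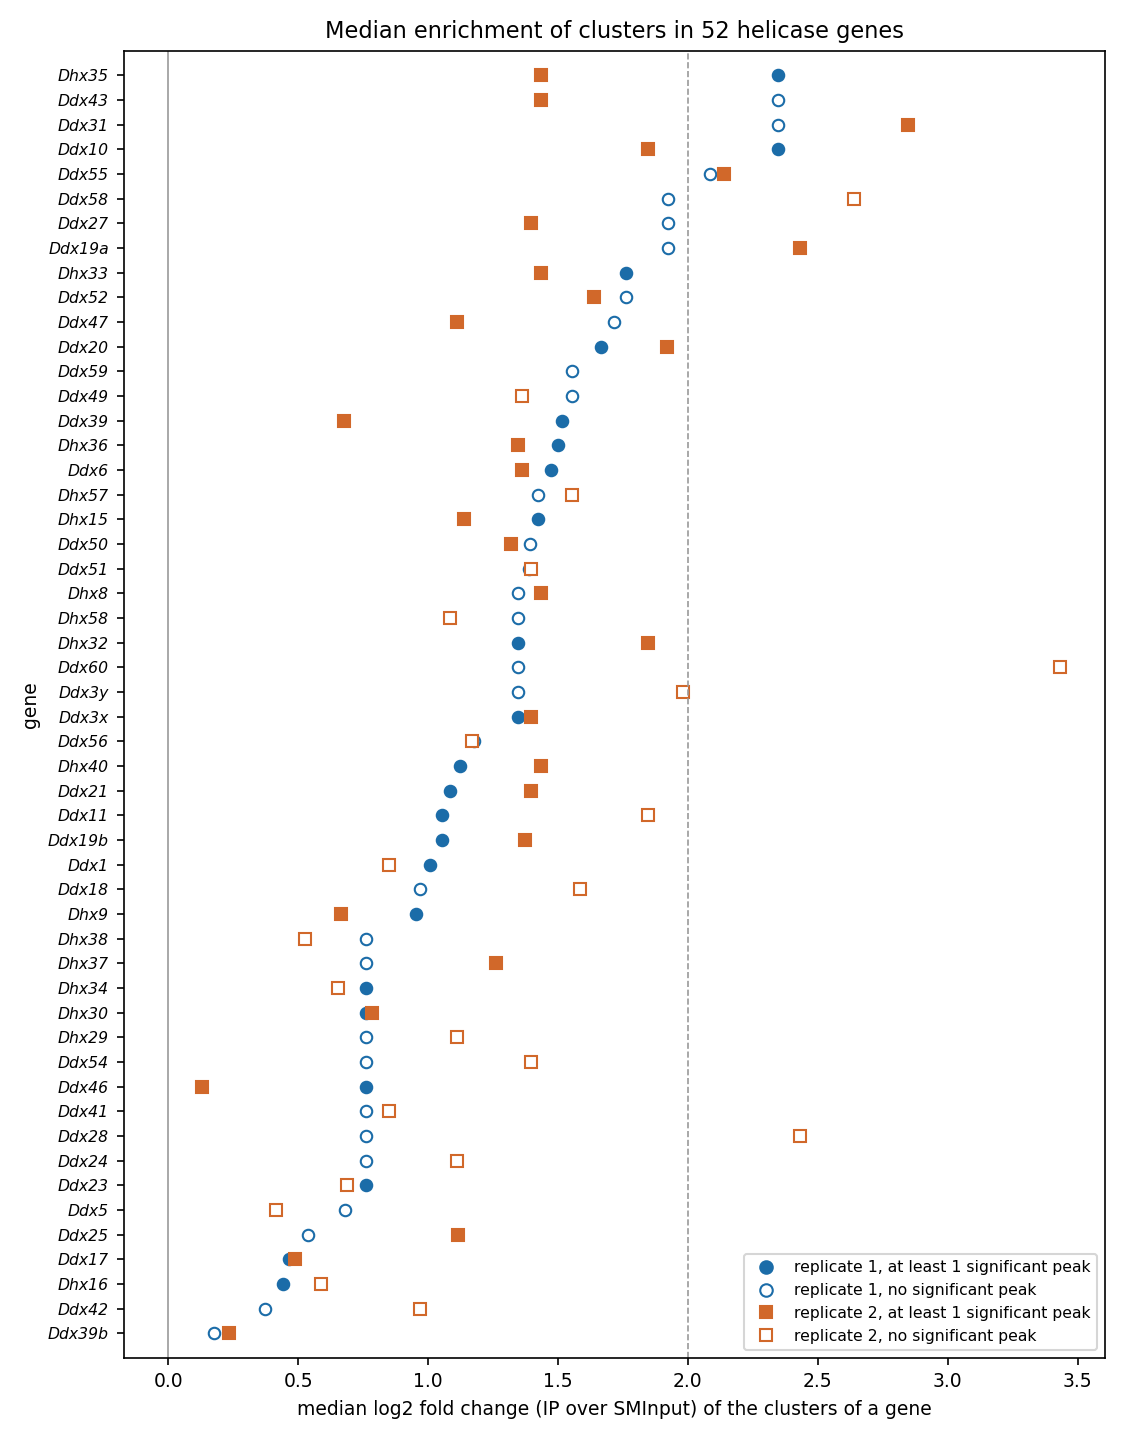
Median log2 fold change (horizontal axis, IP over SMInput) of all clusters of each of the 52 helicase genes (vertical axis), with circles for replicate 1 and squares for replicate 2. Filled symbols mark genes with at least 1 significant peak in that replicate, the dashed line is a log2 fold change of 2, and every median is above 0, from 0.18 for Ddx39b to 2.35 in replicate 1 and from 0.13 for Ddx46 to 3.43 for Ddx60, which had 1 cluster, in replicate 2.

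A shared site is a place where significant peaks of both replicates overlap by at least 1 base. The helicase genes held 9 such sites in 5 genes, Ddx6, Ddx20, Ddx19b, Ddx21 and Dhx15, which is 9.8% of 51 genes, beside 16.6% of all protein-coding genes with clusters in both replicates. Of the 9 sites, 6 lay in a 3′UTR, 2 in coding sequence and 1 in a 5′UTR, while of 3840 shared sites in all protein-coding genes 63.9% lay in 3′UTRs and 28.3% in coding sequence. The 95% interval of each fold change (exact Clopper-Pearson limits of the IP share of reads) covers counting error only. All 9 sites had overlapping intervals in the 2 replicates, and of the 18 values 1 had a lower limit above the threshold of 2. Both values of a site had to reach 2 and most intervals are wide, so the overlap is no measure of agreement.

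Transcripts for the export, translation and decay of mRNA had the largest number of significant peaks of any role group in replicate 1, and the second largest in replicate 2. In these 10 genes, 17 of 226 clusters passed in replicate 1 (7.52%, beside 4.92% of all clusters) and 21 of 187 in replicate 2 (11.2%, beside 13.2%). Most of these peaks lay in 2 genes, with 7 and 8 in Ddx6 and 3 and 6 in Ddx19b. Of the 10 genes, 5 had peaks in both (beside 39.1% of all protein-coding genes), namely Ddx6, Ddx19b, Dhx36, Ddx3x and Ddx39. Ddx25 is counted in this group and also among the germ cell genes. Ddx6 represses translation and activates removal of the mRNA cap in cytoplasmic granules. It had 7 significant peaks among 38 clusters in replicate 1 and 8 among 35 in replicate 2, and all but 3 of these 15 lay in its long 3′UTR of 4250 bases.

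The first Ddx6 site, at chr9:44636898-44636961 on the plus strand and 432 bases after the stop codon, had 32 IP and 6 SMInput reads in replicate 1 and 17 and 5 in replicate 2. Its log2 fold change was 3.18 (1.90 to 4.73) in replicate 1 and 3.61 (2.12 to 5.41) in replicate 2, which placed it at the head of the ranking of helicase sites by the smaller of the 2 values. A second site at chr9:44637221-44637267, 745 bases after the stop codon, had 15 IP and 5 SMInput reads in replicate 1 and 17 and 12 in replicate 2. The fold changes there were 2.35 (0.81 to 4.16) and 2.35 (1.20 to 3.55). At chr9:44637527-44637573, 1065 bases after the stop codon, 17 IP and 5 SMInput reads in replicate 1 and 20 and 12 in replicate 2 gave 2.53 (1.03 to 4.32) and 2.58 (1.48 to 3.75). The 3 sites thus lay nearer to the stop codon than to the end of the 3′UTR. Peaks significant in 1 replicate followed 1630 and 1964 bases after the stop codon in replicate 1 and 2022 and 2921 bases after it in replicate 2, with log2 fold changes between 2.08 and 2.33. Others lay nearer to it, at 324 bases in replicate 1 (2.53, with 17 IP reads) and at 585 bases in replicate 2 (2.09, with 59 IP reads).

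**Figure D2:**
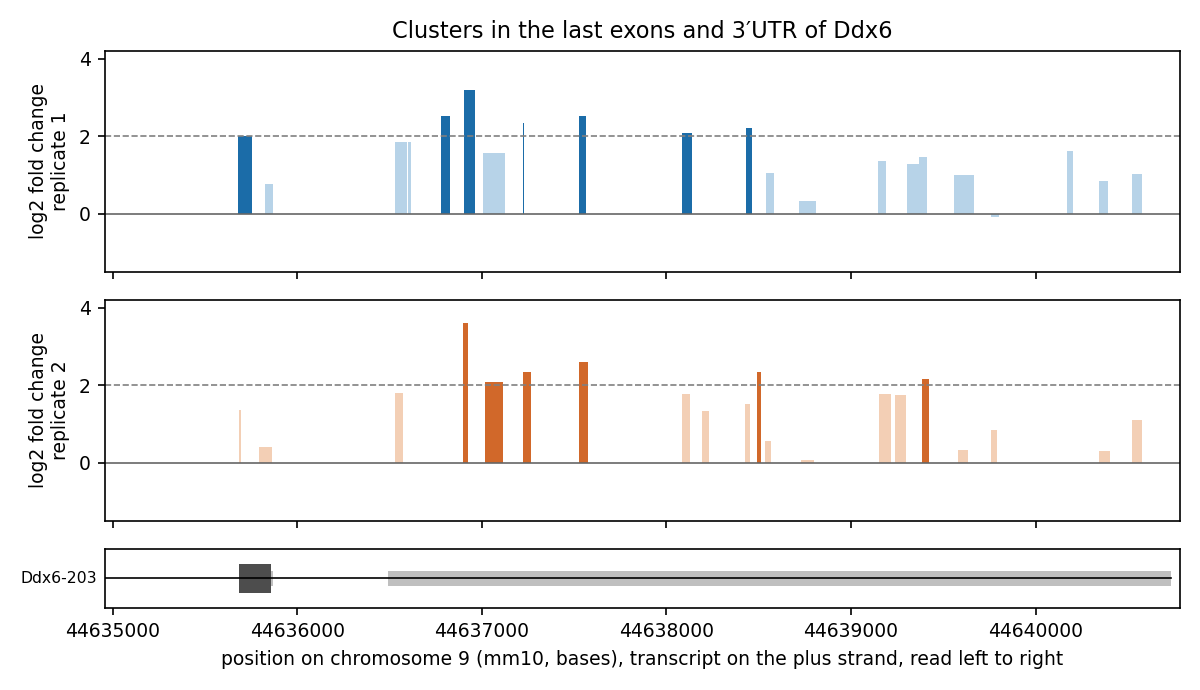
Clusters over the last exons and the 3′UTR of Ddx6 on the plus strand of chromosome 9, with the log2 fold change of IP over SMInput on the vertical axes of the upper panels (replicate 1 above replicate 2), dark bars for significant peaks, pale bars for other clusters and a dashed line at 2. In the lower panel dark boxes are coding sequence and pale boxes 3′UTR, and the 3 sites significant in both replicates lie between positions 44636898 and 44637573.

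Ddx19b helps mRNA-protein complexes leave the nuclear pore. All 3 of its significant peaks in replicate 1 and 4 of its 6 in replicate 2 were in a 3′UTR of 5062 bases. The shared site there had 32 IP and 9 SMInput reads in replicate 1 and 24 and 12 in replicate 2. This corresponds to log2 fold changes of 2.59 (1.49 to 3.84) and 2.85 (1.79 to 3.98). Ddx19a, the neighbouring gene with nearly the same protein product, had 12 clusters and no significant peak in replicate 1, and 3 clusters and 1 peak in replicate 2. Reads that fit both copies cannot be assigned with certainty, and how the authors treated them is not given in the sources used here.

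Dhx36, which unwinds RNA G-quadruplexes, had 3 significant peaks in each replicate, but at different places. In replicate 1 they were adjoining stretches of exon 11 with 14, 10 and 9 IP reads, and in replicate 2 one was in the 3′UTR and 2 were in an intron. Ddx3x, which promotes translation of mRNAs with structured leaders, had 2 peaks in replicate 1 and 1 in replicate 2, none overlapping. Its Y-linked paralogue Ddx3y had no significant peak among 11 and 10 clusters, and the pair is similar enough in sequence that some reads may be exchanged. Ddx39, an export helicase now also called Ddx39a, had 1 peak in each replicate, Dhx34 of nonsense-mediated decay had 1 in replicate 1, and Dhx29 of translation initiation had none.

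Among cofactors of transcription and RNA processing, 11 of 225 clusters were significant in replicate 1 (4.89%, beside 4.92% of all clusters) and 11 of 201 in replicate 2 (5.47%, beside 13.2%), of which Ddx20 held 4 and 9. Ddx20 is a component of the SMN complex, which assembles the small nuclear ribonucleoproteins of the spliceosome. All 22 of its clusters in replicate 1 and all 23 in replicate 2 were above 0, as were 91.8% and 93.4% of clusters in all protein-coding genes, and 18 and 14 of them did not pass. The gene medians were 1.67 and 1.92. Of the 18 helicase genes with at least 20 clusters in both replicates, Ddx20 was the 1 gene with all of them above 0. Below that number, all clusters were also above 0 in Dhx35 (32 and 11), Ddx43 (24 and 11) and Dhx33 (18 and 10), among others.

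The Ddx20 site with the most reads lay just inside the start of the transcript, at chr3:105687470-105687567 on the minus strand, in the 5′UTR 106 bases before the start codon. It had 140 IP and 45 SMInput reads in replicate 1 and 116 and 83 in replicate 2, more IP reads than any other significant helicase peak. Its log2 fold change was 2.40 (1.91 to 2.92) and 2.33 (1.91 to 2.76), the narrowest intervals among the 9 sites. The site at chr3:105678406-105678532 in the 3′UTR, 84 bases after the stop codon, had 36 IP and 13 SMInput reads in replicate 1 and 34 and 20 in replicate 2, and the values were 2.23 (1.28 to 3.27) and 2.61 (1.78 to 3.49). Another site at chr3:105682876-105682914, in exon 6 of 11 at codon 321, rested on 13 IP and 3 SMInput reads in replicate 1 and 8 and 5 in replicate 2. Its fold changes were 2.88 (1.01 to 5.33) and 2.53 (0.73 to 4.48), and peaks of the 2 replicates had 9 bases in common.

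**Figure D3:**
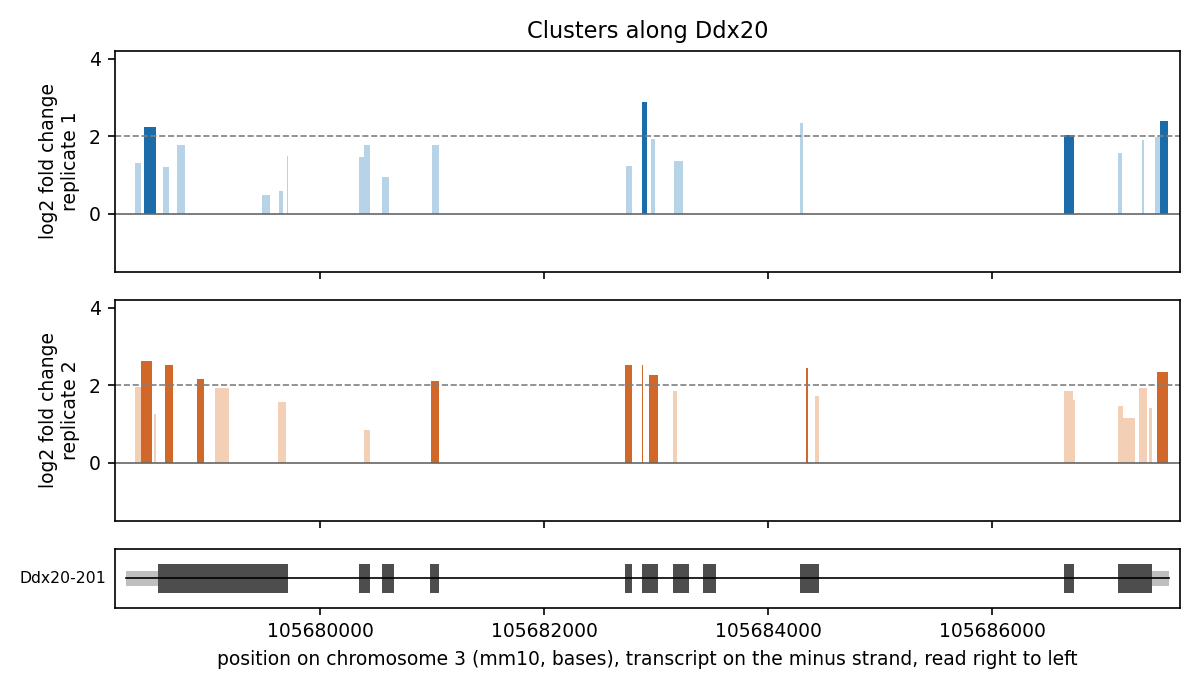
Clusters along Ddx20, a gene on the minus strand of chromosome 3 that is read from right to left, with the log2 fold change of IP over SMInput on the vertical axes (replicate 1 above replicate 2), dark bars for significant peaks, pale bars for other clusters and a dashed line at 2. The lower panel shows coding exons as tall dark boxes and UTRs as low pale boxes. All 22 clusters of replicate 1 and all 23 of replicate 2 are above 0.

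Ddx5 and Ddx17, paralogues that act in splicing and microRNA processing, were covered by many reads and had few significant peaks. Ddx5 had 46 clusters in each replicate and no significant peak in either, and the highest log2 fold change of any of its clusters was 1.68 in replicate 1 and 1.51 in replicate 2. Its cluster with the most IP reads among those with a −log10 P above 0 had 135 IP and 194 SMInput reads in replicate 1, and 140 and 444 in replicate 2, which gives 0.24 and 0.18. A cluster of its 3′UTR of nearly the same depth was higher in both replicates without reaching the threshold, with 133 IP and 84 SMInput reads and a log2 fold change of 1.43 in replicate 1, and 133 and 176 reads and 1.44 in replicate 2 (−log10 P of 12.6 and 18.7). Ddx17 had medians of 0.46 and 0.49 over 52 clusters in each replicate, with 2 significant peaks in replicate 1 and 1 in replicate 2. Dhx9, a helicase that binds inverted repeats in nuclear RNA, had 3 and 1, and Ddx1 of the tRNA ligase complex had 2 and 0.

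Among 10 splicing helicases, 8 of 311 clusters passed in replicate 1 (2.57%, beside 4.92% of all clusters) and 9 of 189 in replicate 2 (4.76%, beside 13.2%), below the share of all clusters in both. Dhx15, which takes apart spliceosomes after splicing, accounted for 3 and 5 of them. Its shared site at chr5:52169945-52170145 on the minus strand filled most of coding exon 5 of 14. It had 17 IP and 6 SMInput reads in replicate 1, with a log2 fold change of 2.26 (0.85 to 3.90), and was split into 2 peaks in replicate 2, of which the higher had 7 IP and 5 SMInput reads and a value of 2.33 (0.46 to 4.33). Ddx46, which remodels the early spliceosome at the branch site, and Dhx35 had 1 peak in each replicate at different places. Ddx23 with 2 peaks and Dhx16 with 1 passed in replicate 1 alone, Ddx39b and Dhx8 with 1 each in replicate 2 alone, and Ddx41, Ddx42 and Dhx38 had none. Ddx42 had 32 clusters in each replicate and medians of 0.37 and 0.97.

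Of the clusters in 16 helicases of ribosome assembly in the nucleolus, 6 of 316 were significant in replicate 1 (1.90%) and 24 of 220 in replicate 2 (10.9%), beside 4.92% and 13.2% of all clusters. Peaks were found in 3 of the 16 genes in replicate 1 (beside 40.8% of all protein-coding genes with a cluster) and in 10 in replicate 2 (beside 62.8%). The 3 genes Ddx10, Ddx21 and Dhx33 had them in both (beside 39.1% of genes with clusters in both). Ddx21, which couples transcription and processing of ribosomal RNA, held the shared site at chr10:62580944-62581043 on the minus strand, 1348 bases after the stop codon in a 3′UTR of 2099 bases. With 19 IP and 7 SMInput reads in replicate 1 and 9 and 8 in replicate 2, its log2 fold changes were 2.20 (0.89 to 3.70) and 2.02 (0.47 to 3.59). The smaller value was the lowest of the 9 sites, but its interval is too wide to fix that order. Ddx10 had 2 peaks in replicate 1 and 5 in replicate 2, the latter all in introns and with at most 6 IP reads.

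In replicate 2 alone, significant peaks were present in Ddx31 (4), Ddx50 (3), Ddx52 (2), Ddx55 (2), Ddx27 (1), Ddx47 (1) and Dhx37 (1). Ddx50 is the paralogue of Ddx21 and its neighbour on chromosome 10. Ddx18, Ddx24, Ddx49, Ddx51, Ddx54 and Ddx56 had no significant peak in either replicate. The median number of IP reads behind a significant helicase peak was 12 in replicate 1 and 8 in replicate 2. Fewer than 10 stood behind 27.1% and 59.0% of them, beside 29.0% and 61.9% of significant peaks in all protein-coding genes.

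The 2 members known for expression in germ cells had no significant peak among 50 clusters in replicate 1 and 3 among 29 in replicate 2 (10.3%), beside 4.92% and 13.2% of all clusters. Ddx25, a testis helicase that carries mRNAs into the chromatoid body of round spermatids, had 26 clusters and no significant peak in replicate 1, and 18 clusters and 1 peak, in an intron, in replicate 2. Its clusters with the most IP reads among those with a −log10 P above 0 lay at different places in coding sequence, with 33 IP and 38 SMInput reads in replicate 1 and 41 and 68 in replicate 2, at log2 fold changes of 0.56 (−0.16 to 1.27) and 1.12 (0.52 to 1.70). Ddx43, which acts with the piRNA machinery, had no peak in replicate 1 and 2 in replicate 2, each with 5 IP reads.

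The 3 sensors of foreign RNA, Ddx58 (RIG-I), Dhx58 and Ddx60, had 16 clusters in replicate 1 and 9 in replicate 2. None was significant, beside 4.92% and 13.2% of all clusters, and so few clusters do not set the sensors apart from these shares. No cluster of these 3 genes with a −log10 P above 0 had more than 6 IP reads, which is below the 7 needed beside 1 SMInput read in replicate 1, while in replicate 2 a call was possible from 4. Of the mitochondrial members, Dhx30, which assembles mitochondrial ribosomes, had 2 peaks in each replicate at different places, and Ddx28 had 1 cluster in replicate 1, 2 in replicate 2 and no peak. Together 5.56% and 6.45% of their clusters passed. Ddx11, a DNA helicase of sister chromatid cohesion, had 1 peak in replicate 1. Of the remaining 4 genes, Dhx40 had 2 and 5 peaks and Dhx32 had 1 and 4, while Dhx57 and Ddx59 had none. In these 4 genes 2.94% and 11.4% of clusters passed. In Dhx40, 2 peaks of replicate 2 in the 3′UTR had 25 and 14 IP reads and log2 fold changes of 2.68 and 3.33, and the overlapping clusters of replicate 1 reached 1.62 and 1.88.

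The shared sites except that of Ddx19b are shown with their sequence in mm10, because the exact bases allow them to be compared with each other. Capitals mark bases inside peaks of both replicates, and each run is written 5′ to 3′ on the strand of the transcript. For 3′UTR and 5′UTR sites 30 bases at the centre of the common stretch are given, and for coding sites the exonic part of the site. The 5′UTR sequence was chosen after its values were seen.
Ddx6 3′UTR, chr9:44636899-44636928, plus strand: aaGAGCTTATTACTTATTTGTGCGAAGTgc
Ddx6 3′UTR, chr9:44637212-44637241, plus strand: ttccgggctgAGTAGACGTaccatcgtcgc
Ddx6 3′UTR, chr9:44637532-44637561, plus strand: TGGATGAAGGTTGCTGGGATTAAGGGATTA
Ddx20 3′UTR, chr3:105678452-105678481, minus strand: GTGGGGTTTGGTGGCATTTTGGAGGAACTT
Ddx20 5′UTR, chr3:105687519-105687548, minus strand: CCTCCGCTTCCAGGCGTGTCCGTGTCTTCT
Ddx20 exon 6, chr3:105682877-105682914, minus strand: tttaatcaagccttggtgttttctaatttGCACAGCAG
Ddx21 3′UTR, chr10:62580988-62581017, minus strand: AATTTTTCTTAATTGTTTGGATCAACTAAG
Dhx15 exon 5, chr5:52169945-52170139, minus strand: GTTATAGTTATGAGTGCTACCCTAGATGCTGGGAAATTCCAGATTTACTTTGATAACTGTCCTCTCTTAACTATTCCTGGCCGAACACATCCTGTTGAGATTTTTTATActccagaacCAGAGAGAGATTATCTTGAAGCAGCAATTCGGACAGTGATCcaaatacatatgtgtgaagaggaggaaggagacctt

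The printed stretches from UTRs leave out that of Ddx19b. The 5 printed from 3′UTRs and that from the 5′UTR occur once in the reference genome without a mismatch, although the middle 20 bases of each of the 3 Ddx6 stretches have 1 further copy. A window at least 50% repeat was found at 1 of 9 helicase sites, that of Ddx19b, and at 5.60% of shared sites in all protein-coding genes. With windows of 50 bases it was 2 of 9, beside 9.19%, as that of Ddx21 was then 56.0% repeat. Reads from repeats can be placed at a wrong copy. The centre of the Ddx19b site has further exact copies in the genome, so its reads may come from elsewhere. Whether reads at the 3 Ddx6 sites came from a further copy was not tested.

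Short base strings were looked for on the transcript strand in windows of 100 bases around each site. The string GAACA was present at 2 of 9 helicase sites, in Dhx15 and in the 3′UTR of Ddx20, beside 7.86% of 3840 shared sites in all protein-coding genes. The same 2 sites held ACACA, which overlaps GAACA in the Dhx15 sequence and was found at 10.7% of all shared sites. The 3′UTR site of Ddx20 also held GGACT (10.1% of all), and its exon 6 site held AAACC (9.24% of all). Leaving aside ACACA, 3 of 9 helicase sites had at least 1 of these strings (33.3%, beside 25.2%). With windows of 50 bases it was 2 of 9 (22.2%, beside 12.1%), as the exon 6 site of Ddx20 then lacked AAACC. These shares rest on 9 sites and the difference from other genes was not tested. None of the 3 Ddx6 windows had any of the 4 strings, nor did those of Ddx19b, Ddx21 and the 5′UTR of Ddx20.

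RNA helicases whose symbols do not start with Ddx or Dhx were compared as a second list, of which 23 genes were found. In these, 50 of 1178 clusters were significant in replicate 1 (4.24%) and 65 of 824 in replicate 2 (7.89%), near the shares of Ddx and Dhx clusters. Of 20 genes with clusters in both replicates, 15 had significant peaks in both (75.0%, beside 33.3% of the Ddx and Dhx genes and 39.1% of all protein-coding genes), but these genes carried more clusters each, 1178 in 23 genes against 1280 in 52 in replicate 1. Ythdc2, which germ cells need for meiosis, had 2 shared sites in its 3′UTR with smaller values of 2.40 and 2.72, and Mov10l1 of the piRNA pathway had 1, with 2.98 in replicate 1 and 2.18 in replicate 2. The translation initiation helicases Eif4a1, Eif4a2 and Eif4a3 had no significant peak in either replicate.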

How the data were processed

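The authors removed adapters with cutadapt and ribosomal RNA reads with Bowtie2, aligned the rest to mm10 with STAR, collapsed PCR duplicates and called clusters with Clipper in each replicate. The deposited −log10 values are their P values for the reads of a cluster in IP against SMInput (chi-square or Fisher's exact test), listed as 0 where the IP share was not higher, or higher by too little for a P value below 1, and as 400 at most. The deposited log2 values are ratios of IP to SMInput reads relative to library totals. Both thresholds are those of the study's methods.

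A cluster was given to a gene when its centre lay in the gene's span on the same strand, and to a region by basic transcripts of GENCODE M21, in the order 3′UTR, coding sequence, 5′UTR, intron. Read numbers were solved from both listed values with scipy, a step tested on simulated data, and 99.996% and 99.989% of clusters listed between 0 and 400 had 1 solution. The tolerance was 1e-11 for whole ratios and 3e-05 for −log10 P. Clusters listed at 0 have no read numbers, and an SMInput number of 1 may stand for 0.

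Full values are given for genes with a shared site, ranked by the smaller log2 fold change, and role groups are described by up to 4 genes with the most significant peaks. The members and lists were chosen with earlier results of these data known, and the replicate block and the counts of repeat bases and genome copies were added after seeing the data. Groups of samples were not tested against each other, since there were 2 replicates. Alternatives covered thresholds, read minimum, gene assignment, overlap, region order, transcripts, window and each replicate alone. Some items are not reported here.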

Additional observations from a re-analysis of the deposited data

How the results depend on the processing

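The thresholds moved the counts of genes, of shared sites and of significant peaks furthest, and they were not varied for the sites with a base string. The 17 genes with a significant peak in both replicates became 1 (Ddx6) with thresholds of 3 and 3, 9 with 2 and 3, 9 with at least 10 IP reads and 11 with centres in exons. Each replicate alone gave 22 to 29 genes. The 9 shared sites became 1 with thresholds of 3 and 3, 29 with 1 and 2, and 5 with 2 and 3. They became 7 with at least 10 IP reads, and 5 where the overlap had to cover at least 50% of both peaks. For these shared-site counts, the read minimum and the exon rule, shares over all protein-coding genes are not given. Whether other genes change alike cannot be read from them. Significant helicase peaks, 48 in replicate 1, became 6 with thresholds of 3 and 3, 107 with 1 and 2, and 26 with 2 and 3. The 78 of replicate 2 became 8, 148 and 33. As shares of helicase clusters in replicate 1 these were 0.469%, 8.36% and 2.03%, beside 1.18%, 7.24% and 2.67% of all clusters. In replicate 2 they were 0.845%, 15.6% and 3.48%, beside 2.42%, 18.4% and 5.82%. The share of significant peaks in 3′UTRs was 36.5% over both replicates. It was 37.5% in replicate 1 and 35.9% in replicate 2, beside 44.8% and 37.9% in all protein-coding genes. With coding sequence placed before 3′UTRs it was 36.5%, with all transcripts 42.1% and with thresholds of 3 and 3 35.7%. These settings reuse the same peaks, and shared sites count in both replicates, so the peaks are not independent. The share of helicase genes that passed in both replicates was 43.1% with thresholds of 1 and 2 (beside 45.2% of all protein-coding genes), 17.6% with 2 and 3 (beside 20%) and 1.96%, from 1 gene, with 3 and 3 (beside 9.43%). The fall in number follows from the stricter settings themselves, and the cause of the differences between replicates was not tested. The replicate block was a Mantel-Haenszel ratio of reads added after seeing the data. With it the shared sites had log2 fold changes from 2.13 (Ddx21) to 3.34 (the first Ddx6 site). Such a pooled ratio lies between the values of the 2 replicates, and no test was made. Peaks with under 10 IP reads have intervals of several log2 units, so the order of such peaks cannot be read from their fold changes.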
